A study of Mus musculus with 9 samples.

Results

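The comparison described here set 3 libraries of cultures expressing histone H4 with a glutamine in place of the lysine H4K91 (H4K91Q) against 3 libraries of cultures expressing wild-type H4 (H4WT), across all genes. These were 6 of the 9 libraries of the series, chosen by their labels, and the tests covered 14761 of its 24100 genes, those that passed a filter on low counts. The cells were neural by label and came from mouse embryonic stem cells that stably carried a transgene inserted by PiggyBac, a DNA transposon. The transgene encoded H4 fused to 3 copies of HA, a peptide used to detect proteins, so every group, the H4WT controls included, made a tagged H4 beside the histone of its own genes. A further group of 3 libraries carried an arginine at the same position (H4K91R). The labels name no treatment, and they do not expand the code 4D in their descriptions, so no time is given here. The labels do not say whether replicates were separate differentiations or separate lines, or which promoter drove the transgene, and p-values therefore measure only the spread between these libraries.

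Histone H4 pairs with H3, and 2 such pairs form the centre of the nucleosome around which DNA is wrapped. H4K91 does not lie in the flexible tail but in the folded core, where the H3-H4 tetramer meets the dimers of H2A and H2B. Arginine keeps the positive charge of lysine, whereas glutamine lacks it and serves as a mimic of acetyl-lysine. The comparison with H4K91R thus asks which changes came with glutamine and which came with either substitution.

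Total counts per library ran from 8970553 to 28887501, the deepest being H4WT replicate 2. Values are given as CPM, counts scaled to a common library total, after TMM factors that correct the totals for their composition. They are not corrected for gene length, so levels are compared between libraries and not between genes. Across genes, which are not independent replicates, log2 CPM correlated at 0.992 to 0.993 among the H4K91Q libraries, at 0.952 to 0.968 between H4K91Q and H4WT, and at 0.978 to 0.986 between H4K91Q and H4K91R. The neural label was checked against neuronal genes. Tubb3, a neuronal tubulin, stood at 54.8, 84.9 and 75.9 CPM in H4WT and 121, 148 and 148 CPM in H4K91Q. Map2, a dendritic microtubule protein, stood at 34.9, 45.4 and 50.1 CPM in H4WT and 157, 143 and 162 CPM in H4K91Q, and Dcx, a marker of migrating neurons, at 28.0, 35.0 and 36.6 CPM in H4WT and 124, 114 and 131 CPM in H4K91Q. Neuronal transcripts were thus present in all 6 libraries, beside those of other cell types given further on. No count separates the transgene's H4 from that of the genome, so the labels could not be checked on the altered gene itself.

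In H4K91Q cultures a contractile and matrix programme was lower than in H4WT. Neuronal genes, a set of fibroblast genes, imprinted growth regulators and many early embryonic genes were higher. In all, 3314 genes were called higher and 3516 lower (edgeR quasi-likelihood test over all 9 libraries, with an adjusted p below 0.05 by Benjamini-Hochberg across tested genes). These are 22.5% and 23.8% of the tested genes, the background against which the lists below are read. A change of at least 2-fold was called for 1237 genes higher (8.38%) and 616 lower (4.17%), where H4K91R against the same controls had 9.18% and 4.59%. In all, 46.3% of tested genes were called in H4K91Q and 46% in H4K91R, higher in 20.9% and lower in 25.1% in the latter. The direct test between the mutants called 5.16% of genes, with 2.37% higher and 2.78% lower in H4K91Q and with 0.935% and 0.0881% higher and lower by at least 2-fold. The libraries of the groups did not overlap for 8138 genes (55.1%). The all-gene median change was 0.013 on the log2 scale. The split between higher and lower depended on the scaling: with library totals alone, without TMM factors, the median of all genes moved to 0.18 and the calls to 5557 higher and 2069 lower, so that 72.9% of the called genes were higher against 48.5% with TMM. Below, "rose" and "fell" are used only of called genes, and log2 changes are given as estimate ± SE. In bulk RNA, fewer cells of a type and less RNA per cell cannot be told apart, and this holds for every result that follows.

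**Figure D1:**
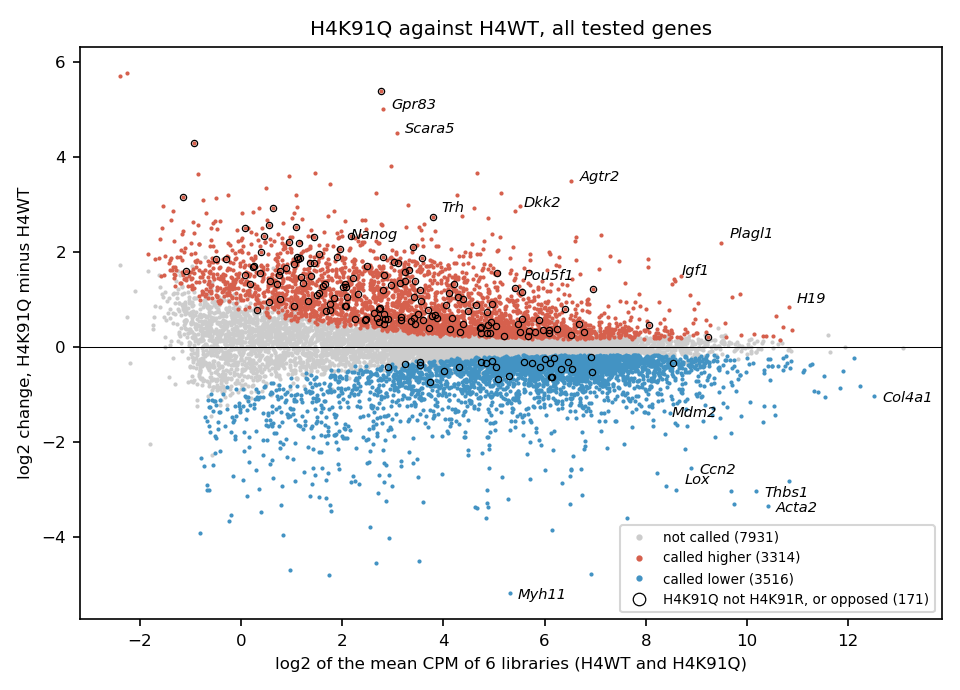
Change between H4K91Q and H4WT (vertical axis, log2) against the level of each tested gene (horizontal axis, log2 of the mean CPM of the 6 libraries), with 1 point per gene. Red points are the 3314 genes called higher, blue points the 3516 called lower, and open circles the 171 genes called in H4K91Q and not in H4K91R or called in opposite directions in the mutants; most of these circles lie above 0.

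The largest decreases included genes of contractile cells and their matrix, and the largest increases genes of fibroblasts and glia and several receptors. Map3k7cl stood at 20.8, 18.1 and 26.8 CPM in H4WT and 0.901, 0.747 and 1.23 CPM in H4K91Q, and Gpr176, an orphan G protein-coupled receptor, at 16.5, 9.85 and 16.7 CPM in H4WT and 1.24, 0.648 and 0.586 CPM in H4K91Q. Tnfrsf11b, the decoy receptor osteoprotegerin, stood at 7.70, 5.04 and 6.25 CPM in H4WT and 0.600, 0.548 and 0.527 CPM in H4K91Q. None of the H4K91Q libraries came near an H4WT library for these 3 genes, and the log2 changes were -4.50 ± 0.25, -4.02 ± 0.35 and -3.435 ± 0.28. Siglecg, a sialic acid binding receptor, changed by -4.79 on the log2 scale, Gpr149 by -4.545 and Slc1a6, a glutamate transporter, by -3.78 (adjusted p of 1.03e-06, 1.23e-05 and 2.23e-07, edgeR). In the other direction, Hpgd, the enzyme that inactivates prostaglandins, stood at 3.85, 4.59 and 1.71 CPM in H4WT and 53.1, 52.4 and 37.0 CPM in H4K91Q. Steap4, a metalloreductase, stood at 4.09, 8.78 and 5.63 CPM in H4WT and 64.0, 64.7 and 64.6 CPM in H4K91Q, and Trpm5, a cation channel, at 1.202, 2.81 and 1.84 CPM in H4WT and 16.04, 17.4 and 19.7 CPM in H4K91Q. Each of the 3 was higher in every H4K91Q library than in any H4WT library, by 3.665 ± 0.29, 3.24 ± 0.25 and 2.99 ± 0.25 on the log2 scale. Ngfr, the low-affinity neurotrophin receptor, rose by 3.20 ± 0.18, Rtl3, a gene derived from a retrotransposon, by 3.80 ± 0.32, S100b, a glial calcium-binding protein, by 3.42 ± 0.30 and Fxyd1, a regulator of the sodium pump, by 3.19 ± 0.33. H4WT replicate 2 held most of the few Fxyd1 counts of its group, and without that library the change was 4.36.

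Contractile genes of smooth muscle had the largest share of lower members of all lists counted. The proteins of this list, actin, myosin and their binding partners, generate force in smooth muscle and in myofibroblasts, and their genes are driven by SRF with its coactivators. Of 28 tested members, 26 fell and 1 rose, with a median of -1.504 on the log2 scale beside 0.013 for all genes. Cnn1, calponin, stood at 51.5, 48.3 and 59.0 CPM in H4WT and 3.77, 4.98 and 4.45 CPM in H4K91Q. Myl9, the regulatory light chain of smooth muscle myosin, stood at 220.0, 206 and 229 CPM in H4WT and 71.4, 78.4 and 73.6 CPM in H4K91Q. The groups lay far apart for both, and the changes were -3.58 ± 0.15 and -1.55 ± 0.072 (adjusted p of 4.24e-08 and 5.89e-08, edgeR). Tagln, transgelin, a SRF target, changed by -3.29, Acta2 by -3.34, Actg2 by -4.78 and Myh11 by -5.17 on the log2 scale. In H4K91R, which shares its H4WT controls with this comparison, 26 of the 28 fell and 1 rose.

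Targets of YAP and TEAD were lower as well. YAP is a coactivator that enters the nucleus of spread and tense cells and binds DNA through TEAD factors. Of 28 tested targets, 24 fell and 1 rose (median -0.87). Ccn2, a secreted matricellular protein, stood at 913, 642 and 868 CPM in H4WT and 128, 148 and 140.4 CPM in H4K91Q. Ankrd1, a nuclear ankyrin repeat protein, stood at 58.2, 35.0 and 44.9 CPM in H4WT and 3.47, 6.03 and 3.52 CPM in H4K91Q. No H4K91Q library reached an H4WT library for either, and the changes were -2.54 ± 0.18 and -3.39 ± 0.30. Amotl2, a junction protein that restrains YAP, changed by -1.10, Crim1 by -1.14 and Ccn1 by -1.21 on the log2 scale. The promoters of a contractile and a YAP target gene that fell were chosen for the matches they hold and are shown as the 250 bases before the start of the RefSeq gene (GRCm38.p6, the patch release of the mm10 build), 5′ to 3′ on the gene's strand. Acta2 is at chr19:34255374-34255623 on the minus strand and Ankrd1 at chr19:36119845-36120094 on the minus strand. Capitals mark GGAATG, or CATTCC on the opposite strand, the short core bound by TEAD factors.
Acta2: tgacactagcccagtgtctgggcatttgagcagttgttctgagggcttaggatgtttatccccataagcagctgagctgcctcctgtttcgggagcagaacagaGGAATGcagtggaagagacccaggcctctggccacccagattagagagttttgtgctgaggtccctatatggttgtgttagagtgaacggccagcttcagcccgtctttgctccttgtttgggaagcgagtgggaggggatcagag
Ankrd1: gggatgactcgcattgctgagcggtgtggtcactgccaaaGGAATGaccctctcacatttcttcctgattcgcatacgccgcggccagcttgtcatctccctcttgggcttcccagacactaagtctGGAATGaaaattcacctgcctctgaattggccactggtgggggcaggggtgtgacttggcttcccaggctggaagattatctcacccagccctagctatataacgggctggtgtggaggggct
The match lies 146 bases before the start of Acta2, and the pair of matches 210 and 123 bases before the start of Ankrd1. Over all genes, 12.6% of the 32851 promoter windows in the table held such a match on either strand and 11% of those of tested genes. Of the 592 windows of genes that fell at least 2-fold in H4K91Q, 108 (18.2%) held one, and 12.5% of the windows of genes that rose at least 2-fold did. A match is a description of these letters and no evidence of binding, and the groups also differed in base composition, with a median of 10 CG dinucleotides in both 2-fold groups against 15 for tested genes.

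Ligands and targets of TGF-beta, integrins and basement membrane genes went the same way. TGF-beta is a secreted signal, stored in the matrix in latent form, that drives matrix production. Of 32 ligands, carriers and targets, 18 fell and 4 rose (median -0.39). Among ligands, Tgfb3 changed by -1.57 and Inhba, the activin A subunit, by -3.36 on the log2 scale. Of the other members, Ltbp2 fell by 3.85 on the log2 scale. Thbs1, thrombospondin, which can release latent TGF-beta, stood at 2265, 1646 and 2294 CPM in H4WT and 223, 239 and 299 CPM in H4K91Q. The H4K91Q libraries were all far below the H4WT libraries for Thbs1, with a log2 change of -3.03 ± 0.165. Among integrins, the receptors by which cells hold the matrix, 11 of 20 fell and 2 rose. Itgb1, the beta subunit common to most matrix integrins, stood at 2236, 1837 and 2179.5 CPM in H4WT and 932, 855 and 847 CPM in H4K91Q and fell by 1.25 on the log2 scale. Itga1 changed by -1.89, Itgav by -1.64 and Itgb4 by -1.12. Of 16 laminin, nidogen and related basement membrane genes, 12 fell, and the log2 change of Lama1 was -1.05, that of Lamb1 -0.92 and that of Hspg2, perlecan, -1.80. The exception was Lama4, a laminin of vessels and nerve sheaths, which rose by 1.105 ± 0.12. Of the 10 tested annexins, calcium-dependent membrane binding proteins, 7 fell and none rose, with log2 changes of -2.93 for Anxa1, -2.57 for Anxa3, -1.13 for Anxa5 and -0.97 for Anxa2. With library totals alone 4 annexins fell.

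Collagens did not move as a block. Of 38 tested, 15 rose and 11 fell. Col8a1, a short-chain collagen of vessel walls, stood at 125, 141 and 162 CPM in H4WT and 14.9, 20.8 and 23.5 CPM in H4K91Q. Col4a1, of basement membranes, stood at 7555, 7863 and 8046 CPM in H4WT and 3659.7, 3702 and 4125 CPM in H4K91Q. Both were lower in every H4K91Q library, with log2 changes of -2.86 ± 0.14 and -1.03 ± 0.083. Col14a1, a fibril-associated collagen of loose connective tissue, stood at 25.97, 36.7 and 33.3 CPM in H4WT and 93.5, 96.8 and 109 CPM in H4K91Q, and Col25a1, a membrane collagen of neurons, at 15.6, 19.15 and 18.4 CPM in H4WT and 38.0, 42.8 and 44.0 CPM in H4K91Q. Those 2 were higher in every H4K91Q library, by 1.62 ± 0.14 and 1.21 ± 0.11. Of 26 genes for elastic fibres and for enzymes that cross-link or hydroxylate matrix proteins, 13 fell and 5 rose. Lox, the cross-linking enzyme of collagen and elastin, changed by -3.01, Loxl2 by -1.88, Fbln5 by -2.14 and P4ha3, a collagen prolyl hydroxylase, by -1.30 on the log2 scale, while Emilin3 rose by 1.65 ± 0.13. Fn1, fibronectin, changed by -2.81 and Sparc by -0.82. Lox was less reduced in H4K91Q than in H4K91R, with a difference between the mutants of 0.77 ± 0.18 (adjusted p of 0.0301, edgeR).

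Genes of adventitial fibroblasts, the matrix-making cells of the outer vessel wall and of loose connective tissue, went the other way. Of 40 tested members 24 rose and 4 fell (median 0.89), and 18 rose at least 2-fold. Agtr2, the type 2 angiotensin receptor, which is abundant in fetal mesenchyme, stood at 13.7, 18.2 and 11.4 CPM in H4WT, 66.9, 115 and 124 CPM in H4K91R and 173, 185 and 153 CPM in H4K91Q. Clec3b, tetranectin, stood at 0.721, 1.44 and 1.10 CPM in H4WT, 3.91, 7.94 and 7.68 CPM in H4K91R and 10.98, 13.1 and 10.5 CPM in H4K91Q. Scara5, a ferritin receptor of fibroblasts, stood at 0, 1.19 and 0.122 CPM in H4WT, 1.84, 4.95 and 6.70 CPM in H4K91R and 11.1, 20.8 and 17.3 CPM in H4K91Q. For each of the 3 genes the order was H4WT, then H4K91R, then H4K91Q, and no H4K91Q library overlapped either other group. The changes against H4WT were 3.50 ± 0.22, 3.24 ± 0.29 and 4.49 ± 0.54. The H4WT counts of Scara5 were almost all in replicate 2, and without that library its fitted change was 7.88, a value that depends on the prior count. Ebf1, a transcription factor of stromal cells, rose by 1.96 ± 0.16. In H4K91R 20 members rose and 6 fell, and 8 members were higher in H4K91Q than in H4K91R, against a background of 2.37% of tested genes, and none was lower. Igf1, a secreted growth factor, rose by 1.43 ± 0.15, Postn, periostin, by 1.085 ± 0.13, Igfbp4 by 1.85 ± 0.16 and Col6a3 by 1.33 ± 0.27; these 4 were chosen after their values were seen.

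**Figure D2:**
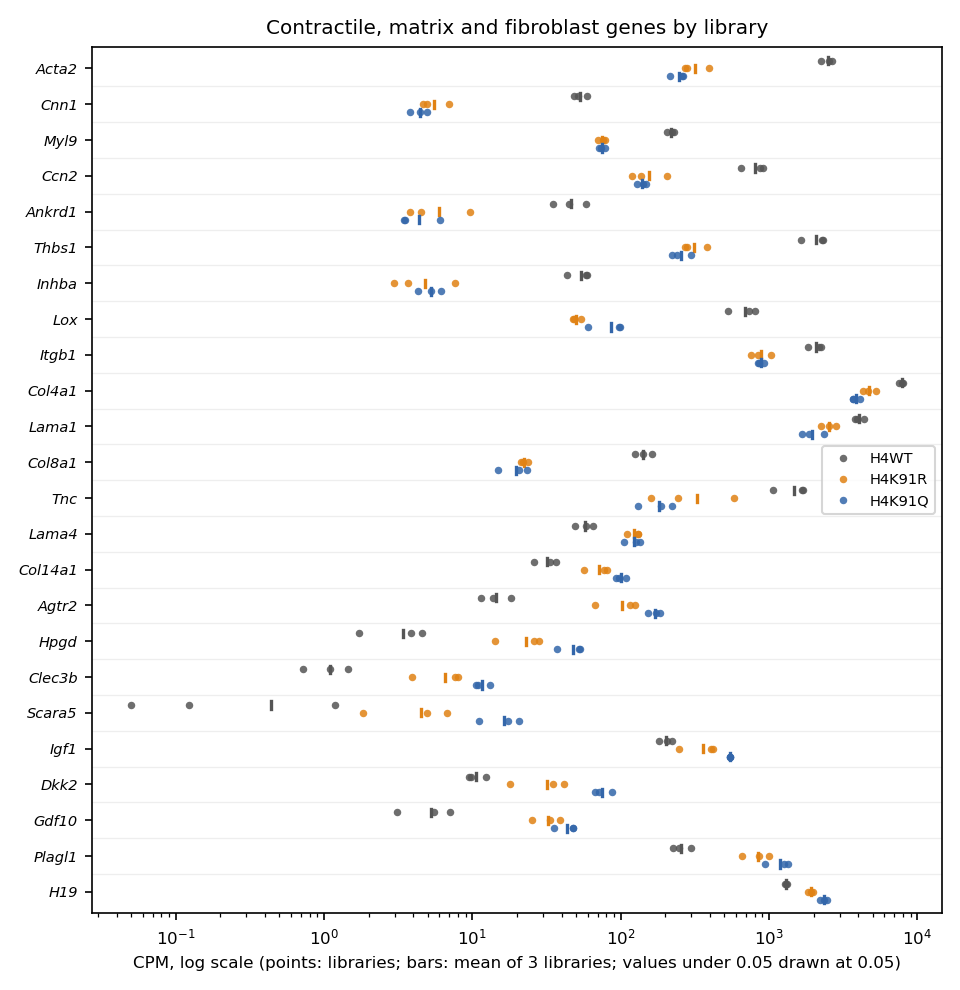
Level of 24 contractile, matrix, fibroblast and imprinted genes in each library (horizontal axis, CPM, log scale), with points for libraries and short bars for the mean of 3 libraries in grey for H4WT, orange for H4K91R and blue for H4K91Q. From Acta2 to Tnc the grey points lie to the right of the others, and from Lama4 downward they lie to the left.

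Several stress and growth programmes were lower in H4K91Q. Of 34 p53 targets, 29 fell and 1 rose (median -0.65). p53 is a transcription factor activated by DNA damage and other stress. Mdm2, the ligase that p53 induces and that degrades it, stood at 508, 431 and 468 CPM in H4WT and 191, 187 and 178 CPM in H4K91Q. Cdkn1a, the cell cycle inhibitor p21, stood at 625, 619.9 and 654 CPM in H4WT and 262, 259 and 250.3 CPM in H4K91Q. The H4K91Q libraries lay below all H4WT libraries for both, with log2 changes of -1.34 ± 0.09 and -1.30 ± 0.1. Pmaip1, the cell death protein NOXA, changed by -1.48 and Perp, a desmosomal p53 target, by -1.96 on the log2 scale. Of 38 genes for sterol and fatty acid synthesis and uptake, 33 fell and 0 rose, by modest amounts (median -0.45). Me1, malic enzyme, changed by -0.83 and Scd1, a fatty acid desaturase, by -0.72 on the log2 scale.

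Genes of the amino acid and unfolded protein responses fell in 28 of 40 cases and rose in 4 (median -0.35), and with library totals alone 18 fell. Atf3, a stress-induced transcription factor, changed by -1.78 on the log2 scale, Slc7a1, a cationic amino acid transporter, by -1.34, Hyou1, a chaperone of the endoplasmic reticulum, by -0.69 and Sesn2 by -0.75. Of 26 immediate-early genes, which respond within minutes to growth factors and stress, 19 fell and 4 rose; the count that rose was 2 without either H4WT replicate 1 or 2 or H4K91Q replicate 1. Fosb stood at 22.7, 26.7 and 31.6 CPM in H4WT and 3.95, 4.23 and 4.51 CPM in H4K91Q, and the groups did not overlap. It changed by -2.675 on the log2 scale, Mafk by -1.19 and Btg2 by -0.82. Bdnf, a neurotrophin that is also induced by activity and by SRF, fell by 3.37, a gene chosen after its values were seen. Of 35 genes of glycolysis and the hypoxia response, 19 fell and 7 rose. Slc2a3, a glucose transporter, changed by -0.87, P4ha1 by -0.76 and Hk2, hexokinase, by -0.64 on the log2 scale. Against H4WT, H4K91R had 28 of the p53 targets, 29 of the sterol and fatty acid genes and 21 of the glycolysis and hypoxia genes lower. The comparisons share their controls.

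**Figure D3:**
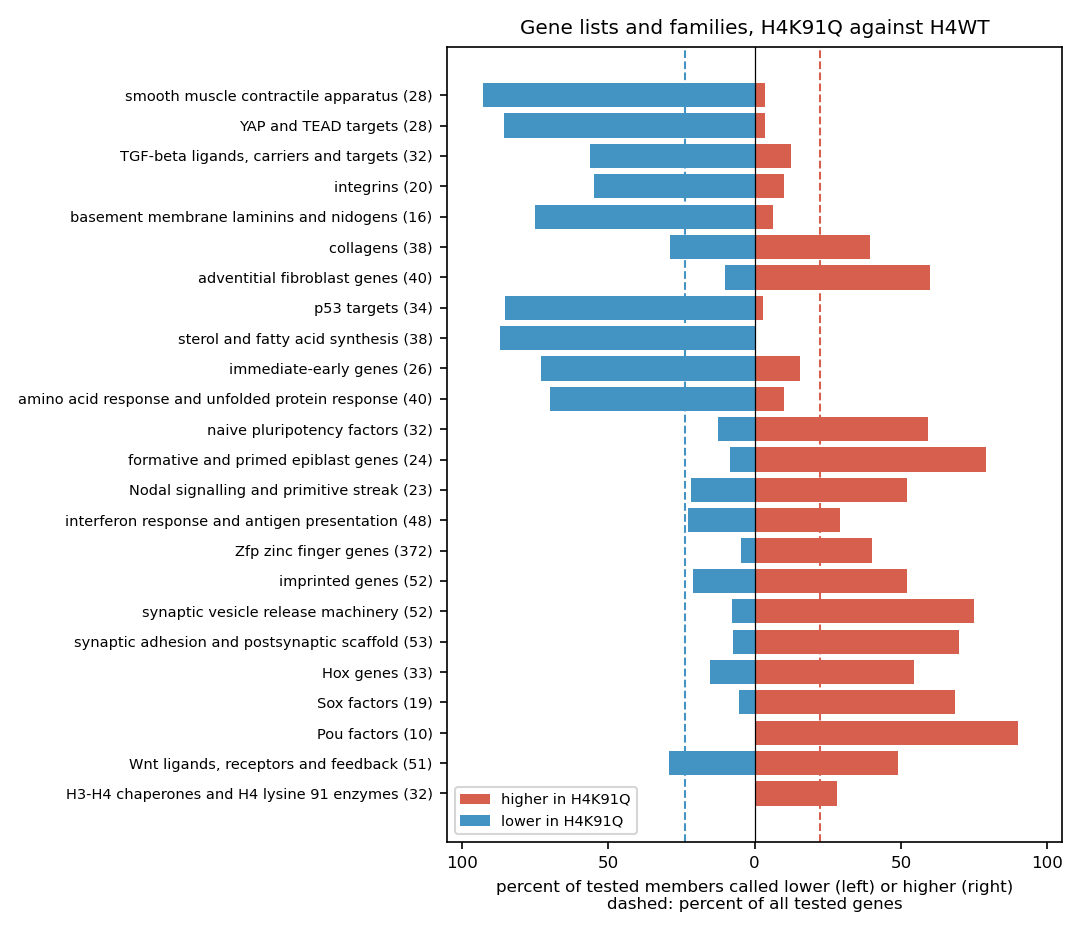
Percent of the tested members of each gene list or family called lower (bars to the left) or higher (bars to the right) in H4K91Q against H4WT, with the number of tested members in brackets and dashed lines at 23.8% and 22.5%, the share of all tested genes called lower and higher. Contractile, YAP, p53 and sterol bars lie almost wholly to the left, and synaptic, Sox, Pou and epiblast bars to the right.

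Genes of the synapse rose, and a part of them stood lower in H4K91Q than in H4K91R. Of 52 genes for the release of synaptic vesicles, 39 rose and 4 fell (median 1.03), where H4K91R had 44 higher and a median of 1.40. The direct test between the mutants called 18 of the 52 lower in H4K91Q and 0 higher, against 2.78% and 2.37% of all tested genes. Snap25, a SNARE protein of the synapse, stood at 7.58, 7.96 and 7.35 CPM in H4WT, 25.95, 25.3 and 29.6 CPM in H4K91R and 21.96, 19.5 and 20.2 CPM in H4K91Q. Scg3, a granin of secretory vesicles, stood at 4.21, 7.0 and 5.51 CPM in H4WT, 29, 32.2 and 29.7 CPM in H4K91R and 19.9, 22.8 and 19.9 CPM in H4K91Q. H4K91Q lay between H4WT and H4K91R for both, 1.42 ± 0.11 and 1.82 ± 0.145 above H4WT. Rab3c rose by 1.72 ± 0.12 and Scg5 by 2.21 ± 0.185. Of 53 synaptic adhesion and scaffold genes, 37 rose and 4 fell. Slitrk1, a synaptic adhesion protein, rose by 2.67 ± 0.19 and Nrxn2, a neurexin, by 1.57 ± 0.12, the last below its H4K91R level, with a difference between the mutants of -0.76 ± 0.11.

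Transmitter receptors and channels were more mixed. Of 44 receptors for glutamate, GABA, glycine and acetylcholine, 23 rose and 4 fell. Gria2, an AMPA receptor subunit, stood at 4.81, 5.93 and 6.61 CPM in H4WT and 17.8, 19.13 and 17.6 CPM in H4K91Q and rose by 1.64 ± 0.14, Gabbr1 rose by 0.76 ± 0.079 and Glra2 by 1.89 ± 0.22, while Chrnb1, the beta subunit of the muscle acetylcholine receptor, fell by 1.502 on the log2 scale. Of 33 sodium and calcium channel genes, 17 rose, Scn3a, a sodium channel of developing neurons, by 1.82 ± 0.14 and Cacng4 by 1.58 ± 0.18. Another 7 fell, with -1.11 for Cacna2d1. Of 53 clustered protocadherins, which give neurons their surface identity, 23 rose and 9 fell, and 5 fell without H4WT replicate 3. Pcdhb11 rose by 1.56 ± 0.145 and Pcdhb20 by 0.99 ± 0.14, while Pcdhgc5 changed by -1.81 and Pcdhga10 by -0.92 on the log2 scale; the variable exons of this cluster share their 3′ exons, which can blur the counts of single members.

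Developmental transcription factor families differed in direction, and the Pax, Pou, Sox and Hox families had more members higher than lower. Of 34 forkhead factors 8 rose and 13 fell (median -0.19), of 15 Kruppel-like factors 6 rose and 5 fell (median -0.049), and of 10 LIM homeobox factors 5 rose and 1 fell. Gata factors had 1 higher and 2 lower of 6, T-box factors 2 and 2 of 7, and sine oculis homeobox factors 2 and 2 of 5. All 6 tested Pax genes, regulators of neural tube and other primordia, rose (median 1.40), and 9 of 10 Pou genes and 13 of 19 Sox genes did. Pax2 stood at 2.65, 1.70 and 2.33 CPM in H4WT, 9.32, 12.03 and 10.2 CPM in H4K91R and 5.10, 5.88 and 6.504 CPM in H4K91Q, highest in H4K91R. Pax6, of the forebrain and spinal cord, rose by 1.03 ± 0.14, Pax3, of the dorsal neural tube and neural crest, by 1.31 ± 0.19 and Pax9 by 1.72 ± 0.37. Pou3f2, which promotes neuronal identity, stood at 2.04, 2.52 and 2.45 CPM in H4WT, 14.5, 18.6 and 15.95 CPM in H4K91R and 11.3, 10.1 and 11.4 CPM in H4K91Q, again with H4K91Q between the other groups. Pou3f3 rose by 1.66 ± 0.15, Pou4f1, of sensory neurons, by 2.03 ± 0.19 and Pou6f1 by 1.10 ± 0.105. Among Sox genes, Sox2, kept in both stem cells and neural progenitors, stood at 12.3, 14.1 and 12.6 CPM in H4WT, 38.2, 54.3 and 52.0 CPM in H4K91R and 47.7, 56.5 and 56.8 CPM in H4K91Q. Sox11 rose by 0.97 ± 0.092, Sox9 by 0.91 ± 0.1 and Sox3 by 1.96 ± 0.23. Of 33 Hox genes, which pattern the body axis, 18 rose and 5 fell; Hoxb8, Hoxb5, Hoxa5 and Hoxa2 rose by 1.07, 1.54, 1.615 and 1.62. In H4K91Q 6 Hox genes were lower than in H4K91R and 0 higher, against 2.78% and 2.37% of all tested genes.

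Signalling genes moved in both directions. Of 51 Wnt ligands, receptors and feedback genes, 25 rose and 15 fell. Dkk2, a secreted modulator of the Wnt coreceptors, stood at 12.4, 9.82 and 9.43 CPM in H4WT, 17.95, 35.2 and 41.8 CPM in H4K91R and 67.2, 86.9 and 71.0 CPM in H4K91Q. Lef1, the nuclear mediator of Wnt signals, stood at 1.08, 0.926 and 0.980 CPM in H4WT, 1.496, 1.81 and 1.77 CPM in H4K91R and 3.56, 4.23 and 4.63 CPM in H4K91Q. Both were highest in H4K91Q without overlap, 2.85 ± 0.25 and 2.07 ± 0.22 above H4WT, and were higher than in H4K91R (adjusted p of 0.00750 and 0.00441, edgeR). Sfrp1, a Wnt antagonist, rose by 1.68 ± 0.31, while the antagonists Dkk3 and Frzb changed by -1.07 and -0.85 on the log2 scale. Of 42 BMP ligands, antagonists and Id targets, 11 rose and 14 fell, with 16 and 13 when library totals alone were used. Gdf10 stood at 3.13, 7.11 and 5.51 CPM in H4WT and 35.3, 47.4 and 47.3 CPM in H4K91Q, and Bmp4 at 45.5, 74.4 and 73.8 CPM in H4WT and 17.8, 22.3 and 21.1 CPM in H4K91Q. The pair moved apart, Gdf10 by 2.92 ± 0.23 and Bmp4 by -1.68 ± 0.19. Gdf6 changed by -2.72 and Bmper, an extracellular regulator of BMPs, by -0.83 on the log2 scale.

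In the Notch pathway, by which a cell keeps its neighbours from becoming neurons, 10 of 30 genes rose and 8 fell, and 4 or 5 fell in 9 of the alternative analyses. Hes1, a Notch target that represses proneural genes, stood at 179, 158 and 151 CPM in H4WT, 66.4, 66.5 and 77.0 CPM in H4K91R and 63.1, 65.5 and 63.6 CPM in H4K91Q. Hes5, a target of neural progenitors, stood at 4.81, 4.56 and 3.18 CPM in H4WT, 25.4, 22.1 and 23.3 CPM in H4K91R and 10.8, 10.01 and 13.6 CPM in H4K91Q. The mutants were alike in range for Hes1, which fell by 1.34 on the log2 scale in H4K91Q. Hes5 rose by 1.415 ± 0.16 and differed from H4K91R by -1.05 ± 0.135 (adjusted p of 0.00174, edgeR). The ligand Dll1 rose by 1.18 ± 0.125. In all, 7 Notch pathway genes were lower in H4K91Q than in H4K91R and 0 higher, against 2.78% and 2.37% of all tested genes. Of 19 retinoic acid enzymes and targets, 11 rose and 3 fell. Aldh1a2, the enzyme of retinoic acid synthesis, rose by 1.07 ± 0.15 and the receptor Rxra by 0.60 ± 0.072, while Cyp26a1, which degrades it, changed by -1.03 and Stra6, a retinol transporter, by -0.82 on the log2 scale.

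Imprinted genes, which are expressed from 1 parental copy and include many regulators of fetal growth, rose in 27 of 52 cases and fell in 11 (median 0.47); 7 fell without H4WT replicate 3 or without H4K91Q replicate 2. Plagl1, a zinc finger protein that regulates other imprinted genes, stood at 225, 299 and 246 CPM in H4WT, 656, 998 and 862 CPM in H4K91R and 1342, 1258 and 937 CPM in H4K91Q. H19, a long non-coding RNA, stood at 1272, 1293 and 1327 CPM in H4WT, 1817, 1971 and 1926 CPM in H4K91R and 2470.5, 2202 and 2335 CPM in H4K91Q. Every H4K91Q library was above every H4WT library for both genes, by 2.20 ± 0.17 and 0.85 ± 0.067. Nnat, a membrane protein of neurons, rose by 1.42 ± 0.11 and Dlk1, a Notch-like ligand, by 1.11 ± 0.093. Cdkn1c and Mest, chosen after their values were seen, rose by 1.49 ± 0.175 and 0.655 ± 0.078. Slc38a4, an amino acid transporter of placenta and liver, stood at 314, 324 and 379 CPM in H4WT and 135, 140.2 and 154 CPM in H4K91Q and fell by 1.25 on the log2 scale. The counts hold no alleles, so loss of imprinting was not tested.

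Chaperone and remodeller genes moved little, and some histone genes moved more. Of 32 chaperones that carry H3 and H4 and enzymes proposed to act on H4K91, 9 rose and 0 fell (median 0.012), and 17 rose with library totals alone. The fold changes were small: Nasp, which protects soluble H3 and H4, stood at 231, 239 and 201 CPM in H4WT, 243, 237 and 262 CPM in H4K91R and 304, 331 and 291 CPM in H4K91Q. Asf1b rose by 0.43 ± 0.087 and Asf1a by 0.375 ± 0.078. Of 26 listed histone genes with poly(A) counts 8 rose and 8 fell. A wider set of 44 tested genes with histone symbols had 9 higher and 14 lower (median -0.20). At least 2-fold, 2 of the 44 rose and 11 fell, against 8.38% and 4.17% of all tested genes. Macroh2a2 and H1f10, replacement variants made outside S phase, rose by 0.84 ± 0.072 and 1.18 ± 0.11, while H2bc4 and H3c14 changed by -1.08 and -1.55 on the log2 scale. Most replication-dependent histone messages lack a poly(A) tail, and a poly(A) library sees only a part of them. Of the H4 genes with at least 1 CPM, H4c18 stood at 11.9, 10.7 and 12.5 CPM in H4WT, 1.04, 2.28 and 2.07 CPM in H4K91R and 0.729, 1.64 and 1.88 CPM in H4K91Q. H4c8 stood at 2.28, 3.67 and 2.57 CPM in H4WT, 0.863, 1.42 and 0.492 CPM in H4K91R and 0.815, 0.797 and 0.527 CPM in H4K91Q, and H4c9 at 8.78, 10.96 and 11.02 CPM in H4WT, 10.6, 6.21 and 6.30 CPM in H4K91R and 6.13, 6.63 and 7.85 CPM in H4K91Q. H4c18 and H4c8 were low in all 6 mutant libraries, with log2 changes of -3.07 ± 0.28 for H4c18 and -2.04 ± 0.32 for H4c8 in H4K91Q. H4c9 fell by 0.60 on the log2 scale, a call that was lost without H4WT replicate 2 or 3, without H4K91Q replicate 1 or 2, with library totals alone, at equal depth and at an adjusted p below 0.01, and H4c12, at 1.38 and 0.690 CPM, was not called. These genes are near copies of each other and of the transgene, so how their counts were divided cannot be told from the table. Of 34 Polycomb genes 12 rose and 7 fell; Phf19 and Cbx6 rose by 1.44 ± 0.13 and 0.76 ± 0.074, and Pcgf5 fell by 0.91. With library totals alone 3 Polycomb genes fell, and 4 without H4WT replicate 1 or 3. Of 17 subunits of SWI/SNF-type remodellers 8 rose and none fell, Smarcc2 by 0.42 ± 0.09 and Smarce1 by 0.39 ± 0.07.

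A smaller set of genes separated the mutants. Genes counted as moved in H4K91Q but not in H4K91R were called against H4WT in H4K91Q, not called in H4K91R, and called in the same direction between the mutants. There were 114 higher (0.772% of tested genes) and 26 lower (0.176%). A further 30 genes (0.203%) were higher than H4WT in H4K91Q and lower in H4K91R, and 1 (0.00677%) went the opposite way. Of the 114, 58 rose at least 2-fold (0.393%). Since the rule used all 3 contrasts, the values below describe the members and support nothing further, and a missed call in H4K91R does not show that a gene stayed at its H4WT level. Of the 144 higher members, 72 had under 10 CPM in H4K91Q. Their median was 10.1 CPM there, against 26.7 for all tested genes, and their median log2 change was 1.03. The H4K91Q and H4WT libraries did not overlap for 135 of them, against 55.1% of all tested genes, and the H4K91Q and H4K91R libraries for 143, against 25.4% of all tested genes; the rule used both contrasts. The set depended on single libraries: leaving out 1 library in turn gave 38 (without H4K91Q replicate 2) to 215 (without H4K91Q replicate 3) genes higher, and 57, 52 and 69 without H4K91R replicate 1, H4K91R replicate 2 or H4K91Q replicate 1. Under all 18 alternatives 22 genes kept their place, 18 of them higher in H4K91Q alone and 4 opposed.

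Factors of the early embryo were among them. Pluripotent stem cells are held by a network around Pou5f1, Sox2 and Nanog, and leave it through a formative state marked by Otx2, Pou3f1 and the DNA methyltransferases. Of the 144 higher members, 28 were in the naive, formative or Nodal lists, which together held 76 of the 14761 tested genes. Of 32 naive factors, 19 were higher and 4 lower in H4K91Q (median 0.87), whereas 4 were higher and 20 lower in H4K91R (median -0.96). Without H4K91Q replicate 3, 7 naive factors fell. The summed level of the naive list overlapped between H4WT (1141 to 1303 CPM) and H4K91Q (1076 to 1317 CPM), and was 802.4 to 865.7 CPM in H4K91R. Pou5f1 (OCT4, chr17:35506032-35510777) stood at 19, 35.2 and 19.7 CPM in H4WT, 6.85, 11.2 and 11.7 CPM in H4K91R and 47.5, 77.1 and 58.4 CPM in H4K91Q. Nanog (chr6:122707489-122714633) stood at 3.37, 4.74 and 3.31 CPM in H4WT, 1.38, 2.04 and 3.25 CPM in H4K91R and 14.1, 22.2 and 15.8 CPM in H4K91Q. In both genes the 3 H4K91Q libraries were the highest of the 9 and no H4K91R library reached the highest H4WT library. H4K91Q was 1.24 ± 0.24 above H4WT for Pou5f1, where H4K91R stood at -1.415. Tdh, a threonine dehydrogenase on which mouse stem cells depend, stood at 9.38, 12 and 10.5 CPM in H4WT, 4.55, 4.80 and 5.71 CPM in H4K91R and 17.8, 31.6 and 22.3 CPM in H4K91Q, with the same order.

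Of 24 formative and primed genes, 19 were higher in H4K91Q and 10 in H4K91R, with 2 and 9 lower. Their summed level was 1364 to 1526 CPM in H4WT and 1656 to 1839 CPM in H4K91Q. Otx2 stood at 0.481, 2.0 and 1.59 CPM in H4WT, 0.173, 0.708 and 0.492 CPM in H4K91R and 5.88, 6.88 and 6.56 CPM in H4K91Q. Utf1, a chromatin protein of stem cells, stood at 2.16, 4.89 and 3.06 CPM in H4WT, 0.921, 1.81 and 1.67 CPM in H4K91R and 9.61, 16.4 and 12.8 CPM in H4K91Q. Dnmt3b, the de novo DNA methyltransferase of the epiblast, stood at 24.0, 35.6 and 26.6 CPM in H4WT, 10.4, 20.8 and 16.4 CPM in H4K91R and 57.5, 67.9 and 71.4 CPM in H4K91Q. The 3 H4K91R libraries were the lowest on average for each, and H4K91Q rose by 2.05 ± 0.31, 1.79 ± 0.27 and 1.15 ± 0.19. Pim2, a kinase, rose by 1.04 ± 0.14, with H4K91R at -0.31. Of 23 Nodal pathway and primitive streak genes 12 were higher and 5 lower in H4K91Q. The summed level of that list overlapped between H4WT (373.2 to 419.5 CPM) and H4K91Q (343.5 to 415.3 CPM). Nodal, the TGF-beta family ligand that maintains the epiblast, stood at 0.721, 1.63 and 0.980 CPM in H4WT, 0.173, 0.315 and 0.492 CPM in H4K91R and 3.602, 5.53 and 3.87 CPM in H4K91Q. Its coreceptor Tdgf1 stood at 4.21, 7.04 and 2.69 CPM in H4WT, 0.518, 2.28 and 2.66 CPM in H4K91R and 12.3, 25.3 and 19.6 CPM in H4K91Q, and its feedback inhibitor Lefty2 at 0.361, 0.963 and 0.367 CPM in H4WT, 0.288, 0.472 and 0.591 CPM in H4K91R and 3.13, 3.79 and 2.93 CPM in H4K91Q. H4K91Q exceeded H4WT by 1.77 ± 0.295, 1.88 ± 0.36 and 2.22 ± 0.32, Lefty2 by 3.14 without H4WT replicate 2. Foxh1, which carries Nodal signals in the nucleus, was 1.75 ± 0.37 higher, and Pcsk6, a protease that activates Nodal, was lower in both mutants, at -1.44 in H4K91Q and -1.39 in H4K91R.

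Membership of the opposed set rested in part on 1 library. H4WT replicate 2 had the highest value of its group for 21 of the 30 opposed genes, and H4K91Q replicate 2 for 22. Summed over these genes, the libraries held 340.9, 396.7 and 329.9 CPM in H4WT, 184.2, 236.2 and 219.6 CPM in H4K91R, and 532.0, 741.8 and 635.5 CPM in H4K91Q. The sums of the groups did not overlap. Without H4WT replicate 2 only 6 genes met the rule for opposed genes, against 31 in all, and without H4WT replicate 3 or H4K91R replicate 1 it was 20 and 16. Nanog, Otx2, Nodal, Utf1, Tdgf1, Gdf3 and Zfp980 left the opposed set without H4WT replicate 2, while Pou5f1, Dnmt3b, Tdh and Cmah stayed in it in every alternative. Dnmt3l and Dppa4 were opposed too, 1.19 ± 0.37 and 1.34 ± 0.37 above H4WT, and the Dnmt3l call was lost without H4WT replicate 1 or 3, without H4K91Q replicate 2, with DESeq2 and at an adjusted p below 0.01. Among genes higher in H4K91Q and not called in H4K91R, 18 stayed in every alternative. Esrrb, Nr5a2, Dppa3, Lefty2, Morc1, Wnt8a, Pim2, Slc7a3, Pecam1 and Platr10 were a part of these. The 18 also held Alg13, Gpa33, Gsta4, Map7d3, Nptx1 and Shox2, so they were not only genes of the early embryo. Esrrb stood at 3.25, 4.74 and 3.06 CPM in H4WT, 3.28, 5.11 and 4.14 CPM in H4K91R and 10.5, 15.9 and 14.1 CPM in H4K91Q and Nr5a2, also a nuclear receptor of stem cells, rose by 2.32 ± 0.31. Dppa3, of the germ line and early embryo, was under 1 CPM in the H4WT and H4K91R libraries and stood at 2.79, 4.09 and 1.70 CPM in H4K91Q.

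The promoters of Nanog and Pim2 were chosen for their matches and carry the octamer-like heptamer ATGCAAA, or TTTGCAT on the opposite strand, which POU factors such as OCT4 bind. The windows are the 250 bases before the RefSeq start (GRCm38.p6), Nanog at chr6:122707239-122707488 and Pim2 at chrX:7878056-7878305, both on the plus strand, with the matches in capitals.
Nanog: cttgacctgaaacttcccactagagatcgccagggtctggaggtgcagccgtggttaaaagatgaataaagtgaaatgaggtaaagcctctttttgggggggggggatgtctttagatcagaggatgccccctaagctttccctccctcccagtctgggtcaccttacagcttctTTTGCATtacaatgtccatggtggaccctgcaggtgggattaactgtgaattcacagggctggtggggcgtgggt
Pim2: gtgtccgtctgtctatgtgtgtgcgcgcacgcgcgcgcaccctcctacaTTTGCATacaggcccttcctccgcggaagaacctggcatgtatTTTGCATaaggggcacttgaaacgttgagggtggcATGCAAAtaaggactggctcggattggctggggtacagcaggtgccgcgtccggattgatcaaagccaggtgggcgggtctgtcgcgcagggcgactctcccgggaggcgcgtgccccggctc
Nanog has a match 75 bases before its start, and Pim2 has 3, at 201, 158 and 123 bases. Such a match was found in 4.1% of all promoter windows and 3.3% of those of tested genes. It was found in 9 of the 127 windows (7.1%) of the higher members of the set, in 5.1% of windows of genes that rose at least 2-fold and in 3.0% of those that fell at least 2-fold. The sets differ in size and in CG content, and no binding was measured.

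**Figure D4:**
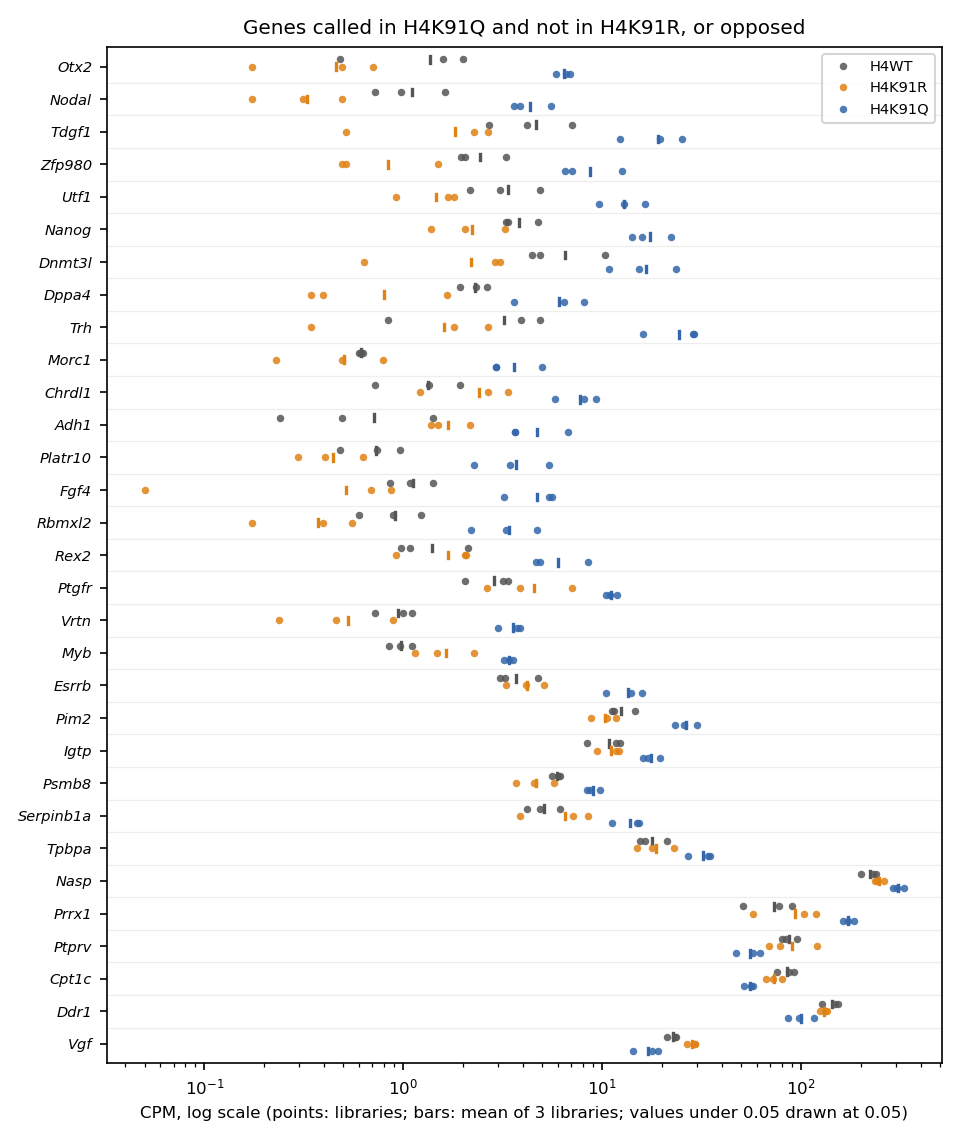
Level in each library (horizontal axis, CPM, log scale) of genes called in opposite directions in the mutants (first 8 rows and Vgf) or called in H4K91Q and not in H4K91R (the other rows), with points for libraries and bars for the mean of 3 libraries in grey for H4WT, orange for H4K91R and blue for H4K91Q. In the first 8 rows the blue points lie to the right, the grey in the middle and most orange points to the left.

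The other 116 higher members were in none of the 3 lists. Trh, the prohormone of thyrotropin-releasing hormone, had the largest rise among those the naming rule covered. It stood at 0.842, 4.89 and 3.92 CPM in H4WT, 0.345, 1.81 and 2.66 CPM in H4K91R and 16.04, 28.9 and 28.7 CPM in H4K91Q, a rise of 2.74 ± 0.41. Morc1, a germ cell ATPase that silences transposons, stood at 0.601, 0.630 and 0.612 CPM in H4WT, 0.230, 0.786 and 0.492 CPM in H4K91R and 2.92, 4.98 and 2.93 CPM in H4K91Q. Fgf4, a growth factor of the epiblast, rose by 1.95 ± 0.43, Vrtn by 1.87 ± 0.29, the non-coding RNA Platr10 by 2.18 ± 0.37 and Rbmxl2, of male germ cells, by 1.90 ± 0.36. For the last 4 the H4K91R values lay -1.39, -0.93, -0.84 and -1.34 from H4WT, none of them called. Trh left the set without H4WT replicate 1 or H4K91R replicate 3, with the replicate number as a block and with every gene of at least 1 count tested. In a list of germline genes silenced by DNA methylation, 7 of 34 were higher and 6 lower in H4K91Q (median -0.21). The shares over all tested genes were 22.5% and 23.8%, so the list as a whole did not rise. Tdrd12, of the piRNA pathway, was higher by 1.45 ± 0.29. In H4K91R 2 members were higher and 14 lower, against 20.9% and 25.1% of all tested genes.

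A run of zinc finger genes on chromosome 4 was among the members. The set held 8 genes, 7 named Zfp and Rex2, between positions 145670697 and 147702631 of chromosome 4. Zfp987 stood at 3.97, 5.30 and 5.27 CPM in H4WT, 1.84, 4.33 and 3.25 CPM in H4K91R and 11.3, 22.1 and 11.8 CPM in H4K91Q. Zfp980 stood at 2.04, 3.30 and 1.96 CPM in H4WT, 0.518, 1.49 and 0.492 CPM in H4K91R and 6.48, 12.7 and 7.03 CPM in H4K91Q, and Rex2 at 1.08, 2.11 and 0.980 CPM in H4WT, 0.921, 2.04 and 2.07 CPM in H4K91R and 4.63, 8.52 and 4.86 CPM in H4K91Q. Each was highest in the 3 H4K91Q libraries. Zfp534 and Zfp981 were opposed, 1.02 ± 0.23 and 1.26 ± 0.28 above H4WT. These genes are close copies of each other in one stretch of the genome, so the assignment of reads among them is uncertain, and the 8 genes are not 8 independent observations. Over the whole family, 149 of 372 Zfp genes rose in H4K91Q and 18 fell, by a median of 0.28; 241 rose and 7 fell with library totals alone, and 11 fell without H4WT replicate 3. Zfp811 rose by 1.81 ± 0.16, Zfp354c by 0.78 ± 0.076 and Zfp41 by 0.86 ± 0.097, and Zfp365 fell by 1.55 on the log2 scale.

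The set also held 8 genes known from mesenchyme, named after their values were seen and belonging to no single list. Of the 40 tested adventitial fibroblast genes, 1 (Sfrp2) was in the set. Prrx1, a homeobox factor of limb and craniofacial mesenchyme, stood at 51.5, 90.5 and 77.8 CPM in H4WT, 57.5, 103 and 119 CPM in H4K91R and 162, 185 and 173 CPM in H4K91Q. Shox2, a homeobox factor of limb and heart, stood at 11.1, 16.2 and 13.7 CPM in H4WT, 12.2, 15.3 and 18.6 CPM in H4K91R and 28.8, 29.8 and 26.4 CPM in H4K91Q. Chrdl1, a BMP antagonist, stood at 0.721, 1.93 and 1.35 CPM in H4WT, 1.21, 2.67 and 3.35 CPM in H4K91R and 5.79, 9.32 and 8.09 CPM in H4K91Q, and Ptgfr, a prostaglandin receptor, at 2.04, 3.37 and 3.18 CPM in H4WT, 2.65, 3.85 and 7.09 CPM in H4K91R and 11.8, 11.01 and 10.5 CPM in H4K91Q. All 3 H4K91Q libraries exceeded the other 6 for each of these genes, by 1.23 ± 0.23, 1.015 ± 0.15, 2.34 ± 0.34 and 1.89 ± 0.27 against H4WT. Sfrp2, a Wnt modulator of fibroblasts, rose by 1.56 ± 0.26, Fgf7 by 1.31 ± 0.21, Abi3bp by 1.57 ± 0.34 and Adh1, an alcohol dehydrogenase that can oxidise retinol, by 2.31 ± 0.41. Of the 8, Shox2 stayed in the set in every alternative, and the others left it without H4K91R replicate 1. Sfrp2 left it in 17 of 18 alternatives.

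Some interferon-stimulated genes and serpins and 2 genes of placental trophoblast were also in the set. Of 48 genes of the interferon response and antigen presentation, 14 rose and 11 fell in H4K91Q, and 2 rose and 16 fell in H4K91R. With library totals alone 22 rose and 7 fell. The direct test called 12 higher in H4K91Q than in H4K91R and 0 lower, against 2.37% and 2.78% of all tested genes. Igtp, an interferon-induced GTPase, stood at 8.42, 11.8 and 12.2 CPM in H4WT, 9.44, 12.2 and 11.8 CPM in H4K91R and 16.1, 19.6 and 17.1 CPM in H4K91Q. Psmb8, an immunoproteasome subunit, stood at 6.01, 6.15 and 5.63 CPM in H4WT, 4.55, 3.70 and 5.71 CPM in H4K91R and 8.41, 9.81 and 8.67 CPM in H4K91Q. H2-T23, a nonclassical class I molecule, rose by 1.34 ± 0.27, and Parp9, whose partner ubiquitinates H4K91, by 0.41 ± 0.097. Gbp7 and Oasl2 rose in both mutants, 1.09 and 0.67 in H4K91Q and 0.79 and 0.39 in H4K91R, while Tap1 and Irgm1 were lower in both, -0.93 and -0.75 against -0.91 and -1.23. The list thus held both directions. Among 24 tested serpins, 9 rose and 11 fell in H4K91Q, and 7 were higher and 1 (Serpini1) lower than in H4K91R, where the all-gene shares were 2.37% and 2.78%. Serpinb1a rose by 1.39 ± 0.24, Serpinb9e by 0.80 ± 0.17 and Serpinf1 by 0.495 ± 0.11, whereas Serpine2 was lower in both mutants, at -1.04 in H4K91Q. Tpbpa and Prl2c5, of placental trophoblast, rose by 0.88 ± 0.16 and 0.61 ± 0.16. Trophoblast markers as a list, which held Tpbpa but not Prl2c5, did not rise, with 3 of 14 higher and 3 lower in H4K91Q. Serpinb9e and Prl2c5 belong to families of near copies, so their counts are uncertain. Without H4K91R replicate 2 the genes Igtp, H2-T23, Serpinb1a, Serpinb9e, Tpbpa and Prl2c5 left the set, as they did without H4K91Q replicate 2.

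The 27 lower members changed by less. Their median change was -0.38 in log2, at a median of 43.1 CPM in H4K91Q, and 25 of the 27 had no overlap with H4WT (55.1% of all tested genes had none). Ptprv, named for a receptor-type phosphatase, is annotated in RefSeq as a transcribed pseudogene. It stood at 95.6, 80.3 and 84.3 CPM in H4WT, 121, 78.9 and 69.4 CPM in H4K91R and 62.3, 47.1 and 57.5 CPM in H4K91Q. Cpt1c, a carnitine palmitoyltransferase of neurons, stood at 76.2, 87.1 and 92.6 CPM in H4WT, 80.2, 72.0 and 66.8 CPM in H4K91R and 52.0, 56.2 and 57.6 CPM in H4K91Q. Rprm, reprimo, a p53-dependent cell cycle gene, stood at 16.1, 16.9 and 17.1 CPM in H4WT, 14.6, 13.2 and 14.8 CPM in H4K91R and 9.26, 11.6 and 9.37 CPM in H4K91Q. These 3 genes changed by -0.635, -0.63 and -0.73 on the log2 scale. Trim3, Ddr1, Csdc2, Pik3r3, Hoxb9 and Arl4c changed by -0.43 to -0.60. The 1 gene opposed in this direction was Vgf, a secreted neuronal growth factor precursor, at 21.2, 23.6 and 23.4 CPM in H4WT, 29.3, 26.7 and 29.3 CPM in H4K91R and 14.3, 19.08 and 17.8 CPM in H4K91Q; its call in H4K91Q was lost with library totals alone. The lower set was not stable: leaving out 1 library gave 2 (without H4K91Q replicate 1) to 90 (without H4K91Q replicate 3) genes, 3 without H4K91Q replicate 2 or H4K91R replicate 2 and 7 without H4K91R replicate 1. None of the 27 stayed in every alternative.

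Marker lists of other cell types were counted in the same way, against 22.5% and 23.8% of all tested genes, and their part in the results above was not tested. Pericyte, epithelial and muscle markers were mostly lower among those called, Schwann and glial markers mostly higher, and trophoblast, endothelial, endoderm and cartilage markers went both ways. For pericytes and mural cells, 2 of 14 tested markers rose and 6 fell, and the summed level ranged from 2747 to 3222 CPM in H4WT and from 512 to 594 CPM in H4K91Q. Acta2, which is shared with the contractile list, held most of that sum, and Mcam fell by 2.56 while Cspg4 rose by 1.06 ± 0.099. For epithelium, 14 of 26 fell and 1 rose, with sums of 2170.0 to 2420.0 CPM in H4WT and 1468 to 1682 CPM in H4K91Q; Dsp, desmoplakin, changed by -1.198, St14 by -0.87 and Dsg2 by -0.75 on the log2 scale. For trophoblast, 3 of 14 rose and 3 fell (sums of 931 to 1033 and 608 to 716 CPM), most of the sum being the keratins Krt8 and Krt18, which changed by -0.66 and -0.71.

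For Schwann cells and neural crest glia, 12 of 17 rose and 1 fell, with sums of 174 to 199 CPM in H4WT and 509 to 566 CPM in H4K91Q. Fabp7, also a marker of radial glia, and Ednrb rose by 2.36 ± 0.13 and 1.73 ± 0.13, but Sox10, which defines the crest lineage, had at most 3 counts in any library and was not tested. For oligodendrocytes and astrocytes 12 of 18 rose and 1 fell, Slc1a2, a glutamate transporter, by 1.67 ± 0.145 and Nfia by 0.95 ± 0.10 (sums of 1316 to 1363 and 1589 to 1758 CPM). For sensory and motor neurons 8 of 20 rose and 2 fell, Ntrk2 by 1.995 ± 0.16 and Ntrk3 by 1.72 ± 0.275 (sums of 158 to 169 and 228 to 262 CPM); 5 rose at equal depth. Endothelial markers were split, 4 up and 3 down of 12, with a log2 change of -0.88 for Flt1 and 0.92 ± 0.145 for Cdh5 (sums of 819 to 884 and 561 to 624 CPM).

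For endoderm 4 of 21 rose and 7 fell (6 and 4 with library totals alone, and 2 and 4 without H4K91Q replicate 2), Gata6 and Gata4 with log2 changes of -0.70 and -0.63, while Sox17 at 203 and 188 CPM was not called (sums of 1384 to 1596 and 1191 to 1267 CPM). For cardiac and skeletal muscle 5 of 14 fell and 1 rose, Acta1 and Actc1 with -1.66 and -1.65 (sums of 92.5 to 103 and 65.0 to 76.3 CPM). For cartilage, bone and tendon 5 of 15 rose and 5 fell, with 1.57 ± 0.19 for Alpl and -1.52 for Scx, of tendon (sums of 1262 to 1892 and 328 to 406 CPM, with the Tnc counts a large part). Blood and macrophage markers were nearly absent: 5 were tested and 3 fell, Runx1, which other cells express too, with -1.225, with sums of 58.5 to 67.2 CPM in H4WT and 27.2 to 32.0 CPM in H4K91Q. Ptprc had at most 3 counts in a library, and C1qa, C1qc, Tyrobp and Hbb-bs had 0.

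The changes were spread over the chromosomes. The median log2 change of the tested genes on a chromosome ran from -0.037 on chromosome 3 to 0.086 on chromosome 11, where 29.3% of the genes were higher and 19.4% lower. On the X chromosome the median was 0.079, with 26.7% higher and 16.7% lower, and 14 of the 144 higher genes that separated the mutants (9.72%) were X-linked, against 3.69% of all tested genes.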

How the data were processed

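Poly(A) RNA of 9 libraries was prepared with RNeasy and NEBNext Ultra II kits, per the labels' protocols. The table deposited by the authors holds expected counts (estimated counts per gene); per the submitters' processing notes, Salmon 0.8.2 and the mm10 build were used, and DESeq2 is named without a version or role. How transcripts were summed to genes, the annotation, the strand setting and any rounding are not given in the sources that were used. The values were taken as whole numbers.

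Of 24100 gene identifiers, 24045 matched RefSeq, from which the symbols were taken. Genes were kept by filterByExpr with a minimum count of 10. TMM factors ran from 0.911 to 1.06, the biological coefficient of variation was 8.82%, and total counts ran from 8970553 to 28887501 per library. All 9 libraries entered 1 model with group as the only term in edgeR 4.0.16 (R 4.3.3, limma 3.58.1). Genes were called at a Benjamini-Hochberg adjusted p below 0.05 from quasi-likelihood tests of H4K91Q against H4WT, H4K91R against H4WT and H4K91Q against H4K91R. The main fit did not use the replicate numbers. Same-numbered H4WT and H4K91Q replicates correlated at 0.172, 0.198 and 0.141 in their deviations from the group means. Differently numbered H4WT and H4K91Q replicates reached at most 0.0359. For H4K91R, same numbers gave 0.174, 0.0107 and -0.163 with H4WT and 0.198, -0.0518 and -0.0257 with H4K91Q. Different numbers there reached 0.265 and 0.223, so these values do not settle whether the numbers pair samples. The fit over all 9 libraries with the replicate number as a block was an alternative. Other alternatives were DESeq2 1.42.0, limma-voom, other size factors, other filters, thinning to equal depth (chosen after seeing the data), a stricter threshold and leaving out each library.

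Named genes had a mean of at least 2 CPM, no overlap between the H4K91Q and H4WT libraries and the largest called change, 12 per direction and class and 8 opposed genes, beside up to 4 called members per list by adjusted p and up to 3 members of the set separating the mutants. Those outside this rule were chosen after their values were seen. They are Tubb3, Map2, Dcx, Fn1, Sparc, Tagln, Loxl2, Sfrp1, Foxh1, Sox17, the genes named in the text as such, and the members of the set separating the mutants beyond the first 12. Members and lists were chosen with earlier results of these data known. A few named genes are not reported here.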

Additional observations from a re-analysis of the deposited data

Results flagged for a closer look

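Of the 12 genes with the largest rises in H4K91Q, 7 also differed between the mutants by a test of that difference (edgeR, H4K91Q against H4K91R). Scara5 was 1.94 higher in H4K91Q than in H4K91R on the log2 scale, Rtl3 1.203, S100b 1.15, Hpgd 1.08, Steap4 0.9996, Clec3b 0.86 and Agtr2 0.75. Each rose against H4WT in both mutants, and the H4WT controls are shared. The 12 were ranked on the same H4K91Q libraries that enter this test, which favours genes higher in H4K91Q. The differences therefore describe these genes and support nothing further. The 12 genes with the largest falls were not called between the mutants. Over all tested genes, 350 (2.37%) were higher and 411 (2.78%) lower in H4K91Q than in H4K91R.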

How the results depend on the processing

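No result changed direction past the threshold in any alternative. For H4K91Q against H4WT, scaling by library totals alone gave 5557 genes higher and 2069 lower, moving the all-gene median to 0.18, while size factors by relative log expression left it at 0.015. The other alternatives kept both counts within 1.5 times of 3314 and 3516: the replicate block gave 3344 and 3496, DESeq2 3070 and 3384, limma-voom 3298 and 3564, equal depth 2928 and 3215, an adjusted p below 0.01 2249 and 2583, and leaving out 1 library 2768 to 3369 and 3050 to 3592. For genes higher in H4K91Q and not called in H4K91R, the count was 32 at an adjusted p below 0.01, against 114, and leaving out 1 library gave 38 to 215. With the replicate block there were 142 such genes and 42 opposed genes, and Trh, Chrdl1, Rbmxl2 and Zfp987 left the first set. Both counts rest also on the H4K91R libraries, and whether the replicate numbers pair samples was not settled. Of the counts in this section the block moved only that of the lower genes by over 1.5 times. Among the list counts given above, it moved chaperones and H4K91 enzymes that fell from 0 to 1. Cardiac and skeletal muscle markers that rose went from 1 to 3. For those lower genes, against 26, the count was 40 with relative log expression factors, 67 with DESeq2, 46 with the replicate block, 15 at equal depth, 0 at an adjusted p below 0.01 in edgeR, and 2 to 90 without 1 library. Opposed genes, against 31, were 19 at an adjusted p below 0.01 and 6 to 38 without 1 library. Between the mutants, leaving out 1 library gave 110 to 543 genes higher and 68 to 550 lower. The cause of these shifts was not tested. The shallowest library, at 8970553 counts, limits what can be said of genes near 1 CPM.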
